A study of Mus musculus with 52 samples.

Results

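Mouse intestinal organoids given an antagonist of the retinoid X receptors (RXRi, 5 µM) were compared with organoids given the vehicle DMSO on day 5 of culture, 120 h after the first dose. The comparison used 8 of the 52 RNA libraries of the series, which were all 4 RXRi libraries and all 4 DMSO libraries labelled with that day. Organoids are epithelial cultures grown from intestinal stem cells, which give rise to absorptive enterocytes and to Paneth, goblet, enteroendocrine and tuft cells. Both groups were wild type C57BL/6 and came from 2 male littermates aged 8 weeks, with 1 organoid culture per mouse and RNA purified in duplicate from each culture. Organoids were started from single cells at 50000 per well, and the RNA of 3 wells was pooled. Both groups were dosed on day 0 and again on day 3. On day 3 the 20% Wnt3a-conditioned medium, 10 µM Y-27632 (an inhibitor of ROCK) and 3 µM CHIR99021 (an inhibitor of GSK3) were withdrawn from both, which left EGF, Noggin and R-spondin. The labels do not name the antagonist, and a single dose was used. A day 5 group of the same cultures given 10 µM all-trans retinoic acid (atRA) and the RXRi and DMSO groups of days 3 and 4 were used to show where the day 5 comparison differs.

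Retinoid X receptors (RXRs) are nuclear receptors that bind DNA mostly in pairs with other nuclear receptors. Their partners include the retinoic acid receptors (RARs), the fatty acid sensors PPARs, the oxysterol sensors LXRs, the bile acid sensor FXR, the vitamin D receptor, the xenobiotic sensors PXR and CAR and the thyroid hormone receptors. In the intestine these pairs are known for control of fat, sterol, bile acid, calcium, vitamin A and drug handling by the absorptive cells.

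Values are RPKM, the reads of a gene scaled to its length and to the reads of the library (reads per kilobase of gene and per fixed number of reads). Differences are RXRi minus DMSO on the scale log2(RPKM + 1), which understates the change of genes at low levels, and ± after a difference is its standard error in the limma fit. The duplicates of a culture were averaged, so n = 2 cultures per group. A gene is said to have risen or fallen where limma gave a Benjamini-Hochberg adjusted p under 0.05 over the 12445 genes tested. The p-values measure only the spread between these cultures.

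The DMSO libraries held 12895667 to 14403922 reads and the RXRi libraries 13864514 to 24366488, with 14459 to 14965 and 14387 to 15410 genes above 0. The 10 genes with most reads took 5.20 to 5.51% of the DMSO reads and 9.57 to 10.1% of the RXRi reads. Epithelial genes were abundant in both groups, with summed RPKM over 12 epithelial genes of 7732 to 8899 in DMSO and 22730 to 24400 in RXRi. Keratins made up much of the sum. Krt19, Krt8 and Krt18 averaged 1659, 1097 and 484 RPKM in DMSO and 9012, 5745 and 3798 in RXRi. Of the 12 genes, 5 rose and 6 fell (median -0.07). The mesenchymal list of 17 genes summed to 4.76 to 7.16 RPKM in DMSO and 2.57 to 3.09 in RXRi, and Col1a2, Col3a1, Dcn, Lum and Thy1 were at 0 in all 8 libraries. The immune list of 16 genes summed to 7.14 to 14.1 in DMSO and 8.03 to 8.97 in RXRi, with 11 and 9 of its genes at 0 in every library of the group, and the 13 endothelial and neural genes to 0.730 to 1.26 and 0.648 to 0.794.

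The antagonist group differed from vehicle in a large share of the genes measured. Of 12445 genes tested, 2223 rose (17.9%) and 2780 fell (22.3%). At least 2-fold changes on the log2(RPKM + 1) scale made up 1165 of the rises (9.36% of the genes tested) and 1534 of the falls (12.3%). Both culture means of one group lay above both of the other for 9568 genes (76.9%), called or not. The counts rest in part on a day 1 DMSO library of 12443 reads that entered the shared estimate of spread, and without it 3575 genes rose and 4367 fell. With the mouse as a replicate block, the paired fit gave 2298 and 2862. The median difference over all genes tested was -0.06.

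**Figure D1:**
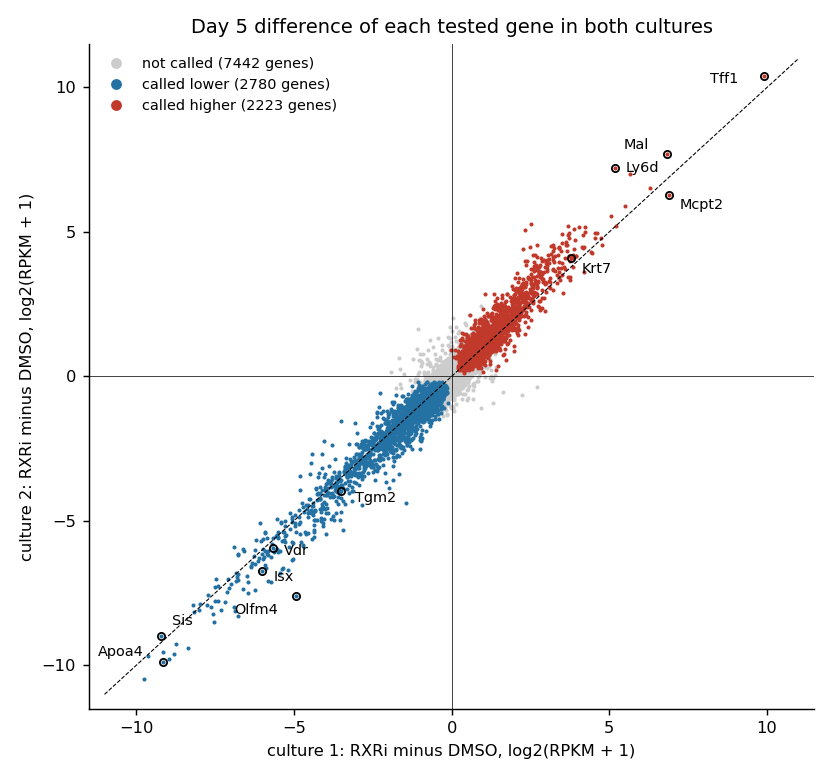
Difference between RXRi and DMSO on day 5, log2(RPKM + 1), in culture 1 (x axis) and culture 2 (y axis), with 1 point for each of 12445 tested genes. Red points are the 2223 genes called higher and blue points the 2780 called lower, and the dashed line marks equal differences in both cultures. Called genes lie along that line in both directions.

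Tff1 (chr17:31161395-31165060, GRCm38.p6) had the largest rise. It encodes a trefoil peptide made by surface mucous cells of the stomach. Its RPKM was 4.94 and 3.48 in the DMSO duplicates of culture 1, 3.08 and 1.76 in those of culture 2, and 4361, 5606, 4043 and 4977 in the RXRi libraries in the same order. The groups were far apart in both cultures, with a difference of 10.15 ± 0.71 (limma adjusted p 7.79e-09). The other trefoil genes did not follow it. Tff3, the trefoil peptide of intestinal goblet cells, was at 1103 to 1289 in DMSO and 376 to 665 in RXRi and fell by 1.22 (± 0.26), and Tff2 stood at 0.272 to 1.10 and 0.514 to 1.29 and was not called. Of the mucous cell genes of the stomach, Gkn2 (gastrokine 2) had 0.0894 RPKM in 1 DMSO library, 0 in the other 3, and 21.2, 28.4, 23.6 and 38.8 in RXRi. Gkn1 was at 0 in 3 DMSO libraries and 0.0636 in the other, and at 11.4, 15.5, 14.6 and 19.3 in RXRi. Both gastrokines were thus found in every RXRi library and close to absent from DMSO.

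The other leading rises were genes of stratified epithelium and of mast cell-type proteases. Mal, a membrane protein of apical transport, was at 1.97, 1.38, 0.642 and 0.579 RPKM in DMSO and 299.6, 299.7, 324 and 334 in RXRi, a difference of 7.25 ± 0.34. Ivl, the cornified envelope protein involucrin, went from 0.654 to 1.62 in DMSO to 153 to 189 in RXRi (6.39 ± 0.62). Cnfn (cornifelin) stood at 0.580 to 2.10 and 72.9 to 96.9 (5.30 ± 0.31), and Lor (loricrin) at 0.273 to 0.523 and 34.7 to 40.3 (4.77 ± 0.36). All 4 genes are known from skin and other stratified or transitional linings, and no DMSO library overlapped an RXRi library in any of them. Psca, a Ly6-family surface protein of stomach and bladder lining, was at 1.45 to 7.30 in DMSO and 318 to 388 in RXRi (6.34 ± 0.41). Ly6d, a surface protein of the same family, was at 31.7, 39.3, 6.85 and 8.50 in DMSO and 1295, 1321, 1159.9 and 1379 in RXRi (6.18 ± 0.72). DMSO culture 1 was above DMSO culture 2 for both, and the RXRi cultures were alike.

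Mcpt2 and Mcpt1 encode proteases known from mucosal mast cells. Mcpt2 was at 3.79, 3.87, 3.43 and 3.60 RPKM in DMSO and 516, 629, 314 and 395 in RXRi (6.59 ± 0.30), and Mcpt1 at 0.0754 to 0.422 and 36.1 to 54.2 (5.20 ± 0.14). Other mast cell genes were low in both groups. Cma1, a further mast cell protease that did not pass the filter, was at 0.0637, 0.199, 0.0711 and 0.193 RPKM in DMSO and 0.860, 0.624, 0.539 and 0.414 in RXRi, higher in every RXRi library. Gata2 was at 0 in DMSO and at 0.0215 to 0.0579 in RXRi. The 10 mast cell genes not named Mcpt, Cma1 included, summed to 2.27 to 3.65 RPKM in DMSO and 0.836 to 1.14 in RXRi. Kit, the member of these that fell (by 1.52), is also on the Paneth cell list. Cpa3, Fcer1a and Ms4a2 were at 0 in all 8 libraries. Mcpt1 and Mcpt2 are close relatives, and the way in which reads shared by such copies were counted is not given in the sources used here. Trim29 (5.69), Cyp1b1 (4.75), Anxa8 (4.70), Pbp2 (4.67) and Fabp5 (4.65) completed the 15 leading rises, and none of the 15 had an RXRi library as low as a DMSO library.

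The leading falls were enterocyte and Paneth cell genes that were among the most abundant of the DMSO organoids. Apoa1 (chr9:46228630-46230469), an apolipoprotein of the particles that carry absorbed fat, was at 1601 to 1844 RPKM in DMSO and 0.885 to 1.68 in RXRi and fell by 9.65 (± 0.41). Apoa4, its neighbour on chromosome 9 (chr9:46240844-46243458), was at 1123 to 2145 and 0.714 to 1.79 and fell by 9.51 (± 0.62). In both the RXRi libraries were far below the lowest DMSO library. Sis, the sucrase-isomaltase of the brush border, was at 938, 822, 661 and 655 in DMSO and 0.582, 0.408, 0.395 and 0.241 in RXRi. Defa3, a Paneth cell defensin, was at 852, 893, 1131 and 1252 in DMSO and 1.58, 0.592, 0.818 and 1.10 in RXRi. In reads, Sis had 35 to 56 and Defa3 5 to 11 in the RXRi libraries, against 50742 to 80373 and 5033 to 7340 in DMSO.

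Adh1 (alcohol dehydrogenase), Reg1, Lgals2, Slc5a1 (the glucose transporter SGLT1), Alpi (intestinal alkaline phosphatase), Cyp4f14, Adh6a, Cps1 (the first enzyme of the urea cycle), Defa17 and Defa31 were also among the leading falls. Their differences lay between -9.36 (Adh1) and -7.90 (Cps1). Of the 15 largest falls, 14 had at least 300 RPKM in DMSO, and RXRi kept 0.0528 to 0.134% of that level. Among all 157 genes that fell from at least 300 RPKM, 18 kept under 0.3% and 0 kept under 0.05%. Defensin genes are near-identical copies, so their values cannot be told apart with certainty.

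**Figure D2:**
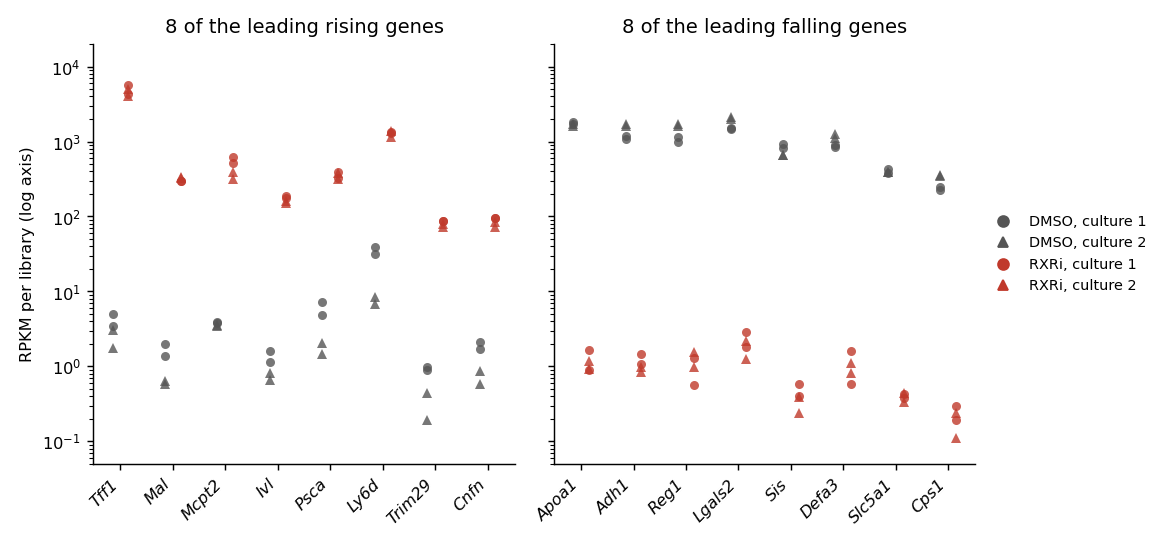
RPKM per library (log axis) for 8 of the leading rising genes and 8 of the leading falling genes, with DMSO in grey, RXRi in red, circles for culture 1 and triangles for culture 2. For each gene the 4 libraries of one group lie apart from the 4 of the other.

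Of the 17 receptor genes tested among 19 listed (RXRs, RARs and their partners), 8 fell and 5 rose, with a median difference of -0.50 against -0.06 over all genes. Vdr, the vitamin D receptor, had 80.8, 77.1, 89.1 and 86.5 RPKM in DMSO and 0.613, 0.535, 0.453 and 0.471 in RXRi, and fell by 5.80 (± 0.26). Nr1i2 (PXR) was at 23.2 to 29.2 and 0.149 to 0.480 and fell by 4.50, and Nr1i3 (CAR) was at 15.96 to 18.4 and 0.447 to 0.620 and fell by 3.55. Ppara fell by 3.23, Nr1h3 (LXRα) by 2.73, Thrb by 2.28 and Thra by 1.41. Each of these partner receptors had higher values in all 4 DMSO libraries than in any RXRi library. Among the RXR genes themselves, Rxra was at 25.3, 25.7, 25.0 and 25.5 in DMSO and 13.4, 12.5, 13.6 and 14.6 in RXRi and fell by 0.86 (± 0.13). Rxrb stood at 15.9 to 22.4 and 12.3 to 14.7, with a difference of -0.50 ± 0.20 that was not called (limma adjusted p 0.0538) but was called without DMSO culture 1 or without the shallow library, and Rxrg was at 0 in all 8 libraries. Rarg, the RAR known from skin, was at 3.40 to 6.41 and 13.96 to 14.9 and rose by 1.40 (± 0.28). Nr4a2 (1.52), Ppard (1.33), Nr4a1 (1.26) and Pparg (1.24) also rose, and the call of Nr4a1 was lost without DMSO culture 2 or RXRi culture 2 and that of Ppard with a pseudocount of 0.1 or duplicate 2 only. Rara, Nr1h4 (FXR) and Nr1h2 (LXRβ) were not called, with differences of -0.25, -0.21 and -0.03.

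Genes that respond to retinoic acid give the nearest check of the label that these files allow, since no RNA target of an antagonist can be read directly. Of 9 such genes tested among 24 listed, 5 fell and 1 rose, with a median of -0.79. Isx, a homeobox repressor of vitamin A uptake, was at 93.5, 99.3, 138 and 138 RPKM in DMSO and 0.362, 0.705, 0.234 and 0.412 in RXRi (-6.36 ± 0.63). Cdx1, a homeobox gene of intestinal identity, was at 60.6 to 94.1 and 1.08 to 2.36 (-4.84 ± 0.23). Dhrs3, which turns retinal back to retinol, was at 44.5 to 54.2 and 1.42 to 1.96 (-4.21 ± 0.24), and Tgm2 at 15.0 to 19.2 and 0.270 to 0.669 (-3.74 ± 0.22). Every RXRi library was far below the lowest DMSO library for all 4. Cyp26b1, a retinoic acid-degrading enzyme, was at 1.04, 1.28, 0.483 and 0.766 in DMSO, 0.0409, 0.0917, 0.0713 and 0.116 in RXRi and 110.3, 136, 41.5 and 43.2 in atRA. Its RXRi libraries were below all DMSO libraries, yet the difference from DMSO was not called (-0.79 ± 0.35, limma adjusted p 0.0862), although it was with a pseudocount of 0.1.

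Genes of vitamin A handling were mostly lower. Of 29 genes tested among 40 listed, 19 fell and 4 rose (median -1.55). Adh1 and Rdh7, which oxidise retinol, had differences of -9.36 and -6.13. Rdh10, the retinol dehydrogenase of retinoic acid synthesis, went the other way, from 42.7, 37.3, 29.2 and 29.2 RPKM to 391, 369, 380.1 and 387 (3.44 ± 0.27), and Dhrs9 rose by 1.67.

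Each list of targets of the partner receptors held members that did not pass the test. Of 33 PPAR targets tested, 20 fell and 4 rose (median -0.81). Fabp1, the liver-type fatty acid binding protein, was at 5937, 5753, 8520.4 and 8565 RPKM in DMSO and 47.8, 58.3, 17.7 and 38.5 in RXRi (-7.53 ± 0.47), and Slc27a2, which activates very long chain fatty acids, fell by 5.38. Fabp4 and Plin2 rose. Fabp4, the adipocyte relative of Fabp1, was at 0 in 3 DMSO libraries and 0.113 in the other, and at 1.06 to 2.18 in RXRi. Plin2, a lipid droplet coat protein, was at 42.7 to 65.0 and 193 to 203 (1.86 ± 0.23).

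Of 16 LXR targets, 9 fell, the receptor gene Nr1h3 among them, and 2 rose (median -0.71). Abcg5 and Abcg8, the 2 parts of the transporter that returns sterols to the gut lumen, were at 60.3 to 79.5 and 40.7 to 52.2 RPKM in DMSO, and at 0.0598 to 0.121 and 0.0336 to 0.0962 in RXRi. Their differences were -6.01 ± 0.30 and -5.49 ± 0.25. Of 11 FXR targets and bile acid genes, 3 fell and 2 rose (median -0.25), shares close to those of all genes (22.3% and 17.9%). Slc51a and Slc51b, the pair that exports bile acids to the blood, had differences of -4.55 and -3.82. Fgf15 and Nr0b2, further FXR targets, were not called. Cyp27a1, a sterol hydroxylase, was at 2.28 to 3.21 in DMSO and 15.3 to 17.3 in RXRi and rose by 2.23. Of 7 vitamin D targets tested among 13 listed, 4 fell, and 0 rose, or 1 without the shallow library. Vdr itself was 1 of the 4. Cyp24a1 and Trpv6 did not pass the filter, at 0.0573 RPKM or less in every DMSO and RXRi library of day 5. Calb1 and Trpv5 were at 0 in all of them. S100g, the calcium carrier calbindin, was at 98.9, 82.9, 119 and 115 in DMSO and 2.39, 6.64, 3.65 and 4.16 in RXRi (-4.38 ± 0.30).

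Pairs with RXR bind direct repeats of a 6-base site, with a spacing that differs between partners, so promoters of 300 bases around the gene start (RefSeq, GRCm38.p6) were searched on both strands. A promoter was found for 9793 of the tested genes, 1770 of them higher and 2186 lower. The exact repeat of AGGTCA spaced by 1 base stood in 4 promoters of all genes (0.041%), in 0 of the higher and in 2 of the lower (0.091%), and with 2, 4 or 5 bases between in 0. With A or G in place of the leading A, and G or T in place of the G before TCA, which includes the exact repeats, spacing 1 stood in 26 (0.265%), in 3 of the higher (0.169%) and 7 of the lower (0.32%). Spacing 2 stood in 10 (0.102%), in 4 of the higher (0.226%) and 1 of the lower (0.046%). Spacings 4 and 5 stood in 3 and 2, each in 1 of the lower genes. Other genes that changed also hold a repeat before the gene start and are not shown. Among them are Isca1 (spacing 1, lower), Cxcl10 (spacing 1, higher) and Slc7a7 (spacing 2, lower). The sites of 6 such genes are shown 5′ to 3′ on the strand of the repeat, with the 6-base sites in capitals. Igsf23 and Ak4 have spacing 1, Slc45a3, Tinagl1 and Ano1 spacing 2 and Akp3 spacing 4.
Igsf23, chr7:19950797-19950821, plus strand: ggactgAGGTCAaAGGTCAactcga
Ak4, chr4:101419562-101419586, minus strand: cctctgGGGTCAgAGGTCAgtcaga
Slc45a3, chr1:131970480-131970505, plus strand: aactaaGGGTCAgtAGGTCAagttac
Tinagl1, chr4:130175210-130175235, minus strand: agcccaGGGTCActGGGTCAaggatg
Ano1, chr7:144738626-144738651, plus strand: ccccggGGGTCAcgGGGTCAcctgca
Akp3, chr1:87124819-87124846, plus strand: agcaggAGTTCAgttcAGTTCAcaggga

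Of these, Akp3, an intestinal alkaline phosphatase like Alpi, was at 78.6, 70.8, 40.6 and 37.1 RPKM in DMSO and 0.137, 0.116, 0.0799 and 0.293 in RXRi (-5.57 ± 0.39). Slc45a3 was at 0.423 to 1.85 and 38.3 to 45.3 (4.33 ± 0.25), Tinagl1 at 4.85 to 13.5 and 92.0 to 101 (3.42 ± 0.34) and the chloride channel gene Ano1 at 6.48 to 13.4 and 62.5 to 66.5 (2.71 ± 0.57). Igsf23 fell by 1.16 and Ak4 fell by 2.25, a call that was lost without RXRi culture 2. The 6 were picked after their values were seen. A match of letters in this window is a description and shows no binding.

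Nearly the whole enterocyte list fell. Of its 46 genes, all tested, 44 fell and 0 rose (median -4.94), and 31 of the 44 were also below both DMSO cultures of day 3, as were 2313 (83.2%) of all 2780 genes that fell. Without the shallow day 1 library 1 of the 46 rose. Krt20 and Nt5e were the 2 that were not called (Nt5e was called higher in the paired fit with the replicate block), with Krt20, a keratin of mature villus cells, at 144 to 259 RPKM in DMSO and 182 to 238 in RXRi. Of 24 brush border genes tested among 25 listed, 23 fell (median -3.49), and Eps8 was not called. Anpep and Dpp4, peptidases of the brush border, are among them, with Anpep at 138 to 154 in DMSO and 0.239 to 0.466 in RXRi. In bulk RNA, fewer cells of a type and less RNA per cell cannot be told apart.

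Genes of fat and sugar handling were mostly lower. Of 27 genes of chylomicron assembly and fat absorption, 19 fell and 2 rose (median -1.85, and 5 rose without the shallow library). Mttp, which loads fat onto the lipoprotein particle, was at 512, 491, 481 and 473 RPKM in DMSO and 3.28, 3.93, 2.20 and 3.04 in RXRi (-6.91 ± 0.23). Apob, the protein that Mttp loads, kept more, at 70.5 to 88.6 and 18.9 to 24.2 (-1.85 ± 0.22). Npc1l1, the cholesterol importer, fell by 5.67, and Dgat1, an enzyme of triglyceride synthesis, fell by 3.64. Of 11 genes of fructose use and gluconeogenesis, 9 fell and 0 rose (median -5.16, and 1 rose without the shallow library). Khk, the ketohexokinase that starts fructose breakdown, was at 312 to 386 and 4.34 to 4.81, and Fbp1, a gluconeogenic phosphatase, at 54.9 to 58.5 in DMSO and at 0 to 0.146 in RXRi. Of 27 genes of fatty acid oxidation, 19 fell and 0 rose (median -0.84), and of 18 genes of glycolysis 11 fell and 2 rose (median -1.02). Pfkfb4, which makes a regulator of glycolysis, fell by 2.82, and Slc2a1, the widespread glucose transporter GLUT1, rose from 74.4 to 85.5 to 207 to 264 (1.55 ± 0.34).

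Genes of drug and toxin handling were mostly lower too. Of 38 xenobiotic genes, 32 fell and 4 rose (median -3.90). Ces2e, a carboxylesterase, was at 439.7 to 464 RPKM in DMSO and 1.15 to 1.51 in RXRi (-7.63 ± 0.18), and Cyp2c55, a cytochrome P450, at 206 to 319.7 and 0.190 to 1.26 (-7.23 ± 0.21). Cyp1b1, a P450 found mostly outside the intestine and liver, rose from 0.0557 to 0.321 to 25.5 to 33.6. The Ces and Cyp2c genes are families of close copies, so single members are uncertain.

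Fatty acid and sterol synthesis did not move as one group. Of 17 genes of fatty acid synthesis 9 fell and 4 rose (median -0.50), and of 25 genes of cholesterol synthesis 9 fell and 2 rose (median -0.29). Mlxipl, a sugar-sensing transcription factor, fell from 39.8 to 51.7 RPKM to 0.342 to 0.437 (-5.06 ± 0.21). Scd1, the desaturase, fell by 4.03.

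**Figure D3:**
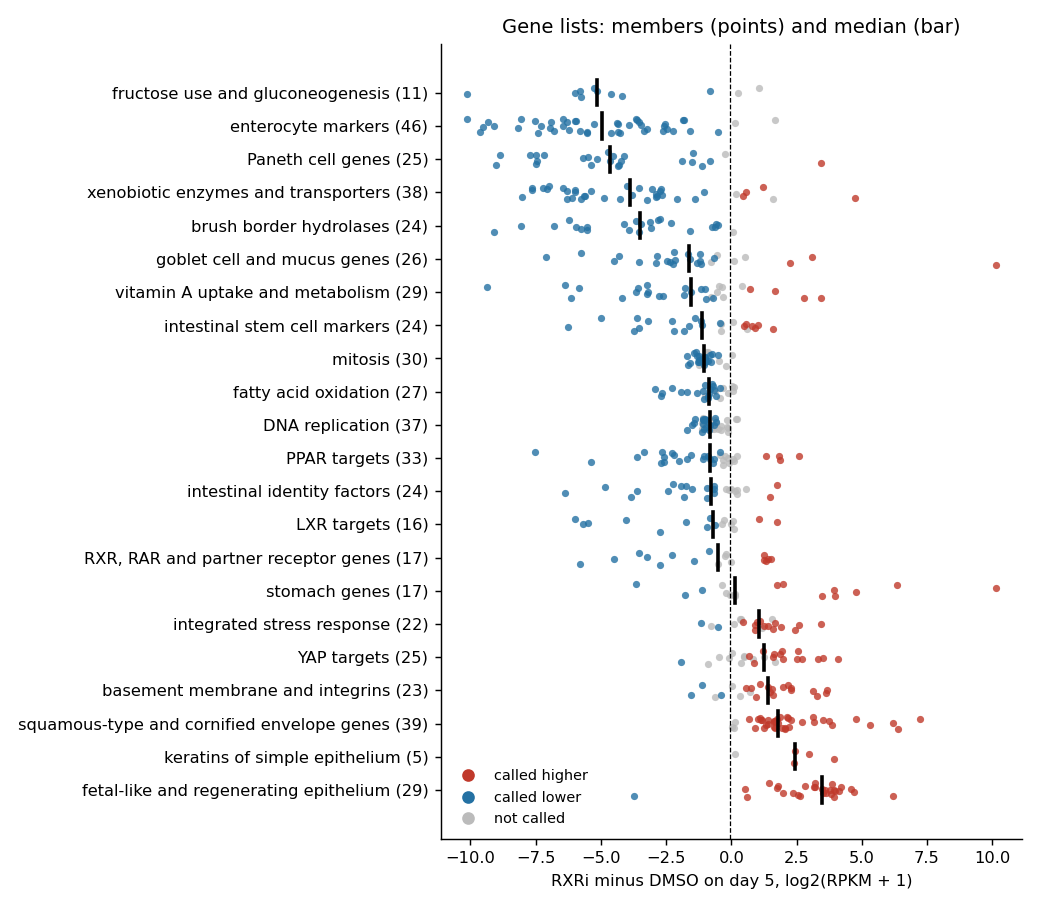
Differences (RXRi minus DMSO, day 5, log2(RPKM + 1)) of the tested members of 22 gene lists, 1 point per gene, red where called higher, blue where called lower and grey where not called, with a black bar at the list median and the number of tested members in brackets. Enterocyte, Paneth and fructose genes lie furthest to the left, and the list of fetal-like epithelium furthest to the right.

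Genes of secretory cells were lower to different degrees. Of 25 Paneth cell genes, 23 fell and 1 rose (median -4.66). Lyz1, lysozyme, was at 284, 288, 382 and 401 RPKM in DMSO and 1.14, 0.806, 0.962 and 0.584 in RXRi (-7.49 ± 0.30), and Itln1, a lectin, at 493 to 825 and 1.58 to 2.52. Of 26 goblet cell and mucus genes, 19 fell and 3 rose (median -1.63), and Tff1 was among the 3. Muc13, a membrane mucin, was at 449, 458, 389.8 and 428 in DMSO and 2.43, 2.69, 1.59 and 2.02 in RXRi (-7.10 ± 0.13), and Agr2, a folding enzyme of mucus, fell by 3.54. Muc2, the mucin that goblet cells secrete, was at 7.92 to 15.8 and 0.989 to 2.12 (-2.34 ± 0.37). Atoh1 and Spdef, regulators of secretory fate, had differences of -2.22 and -2.16. Dll1, a Notch ligand of secretory cells, fell by 2.52 and Notch3 rose by 1.64. Of 16 genes of Notch signalling and secretory fate, 9 fell and 3 rose (median -0.61).

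Enteroendocrine genes were lower in part. Of 23 hormone and granule genes, 10 fell and 1 rose (median -0.91), with Gcg (glucagon) at 14.7 to 24.6 RPKM in DMSO and 1.24 to 2.31 in RXRi (-2.94 ± 0.37) and Ghrl (ghrelin) at 19.6 to 30.0 and 4.87 to 6.75 (-2.04 ± 0.27). Sst, somatostatin, stood at 1.42 to 2.90 and 1.81 to 5.21, which overlap, and was not called. Neurog3, the factor that starts endocrine fate, was at 3.11, 2.96, 8.36 and 6.68 in DMSO and 0.0937, 0.189, 0.136 and 0.0799 in RXRi (-2.38 ± 0.34). Of 18 endocrine transcription factors, 2 fell, a share below the 22.3% of all genes that fell. Without the shallow library 9 of the 18 fell, beside 4367 of all 12445 genes. Foxa1 was the 1 that rose (1.76 ± 0.22). Of 8 tuft cell genes tested among 24 listed, 3 rose and 3 fell, with Avil (advillin) at 0.481 to 0.929 and 32.1 to 36.5 (4.37 ± 0.19) and Pou2f3, the factor that defines tuft cells, falling by 0.48. The call of Pou2f3 was lost without DMSO culture 2 or either RXRi culture. Without the shallow library 5 of the 8 tuft genes fell.

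Stem cell and cell cycle genes were mostly lower. Of 24 stem cell markers, 14 fell and 6 rose (median -1.13). Lgr5, the receptor that marks crypt base stem cells, was at 8.67, 9.32, 16.8 and 17.3 RPKM in DMSO and 0.226, 0.0879, 0.172 and 0.129 in RXRi (-3.54 ± 0.37). Olfm4, a further stem cell marker, was at 37.1, 36.9, 219.6 and 202 in DMSO and 0.264, 0.207, 0.153 and 0.0250 in RXRi (-6.27 ± 0.74), and Smoc2 at 27.7 to 50.6 and 0.151 to 0.347. DMSO culture 2 was higher than DMSO culture 1 for all 3, and both were above every RXRi library. Cd44 (1.58) and Sox9 (0.79), crypt genes that are Wnt targets, rose, and the call of Sox9 was lost without DMSO culture 1 or RXRi culture 2. The Wnt target list split, with 5 of 17 up and 5 down (median -0.03), Axin2 falling by 2.22 and Ccnd1 (cyclin D1) rising from 40.1 to 53.7 to 299 to 328 (2.73 ± 0.17). Of 30 mitosis genes 22 fell (median -1.04), with Mki67 at 23.04 to 28.3 and 7.91 to 12.6 (-1.30 ± 0.20). Of 37 DNA replication genes 18 fell (median -0.81), 31 without the shallow library, with Pcna at 119 to 149.8 and 43.8 to 55.3 (-1.42 ± 0.14). In neither list did a gene rise.

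Intestinal identity factors fell unevenly. Of 24 tested among 26 listed, 15 fell and 2 rose (median -0.80). Besides Isx and Cdx1, Hnf4g fell by 3.63, Gata6 by 1.52 and Hnf4a by 0.94. Cdx2, the homeobox factor that defines intestine, was at 119.7, 131, 132 and 134 RPKM in DMSO and 22.4, 20.9, 24.3 and 24.2 in RXRi (-2.44 ± 0.56), a call that was lost with duplicate 2 only. The 2 that rose were Foxa1 and Klf4 (1.46), and the call of Klf4 was lost without DMSO culture 2. Pdx1, Gata5 and Foxa2 were not called. Epcam, a general epithelial adhesion protein, fell by 1.26, and Cdh1 (E-cadherin) rose by 0.90.

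The list of fetal-like and regenerating epithelium, genes known from fetal gut and from gut healing after injury, moved up as a block. Of 29 genes tested among 35 listed, 28 rose and 1 fell (median 3.46), and 27 of the 28 were above every DMSO culture of any day in the series, as were 1571 (70.7%) of all 2223 genes that rose. Krt7 was at 275, 254, 199 and 204 RPKM in DMSO and 3805, 3484, 3297 and 3602 in RXRi (3.93 ± 0.21). Clu, a secreted chaperone, was at 138, 104, 108 and 111 and 1894, 1634, 2409.7 and 2322 (4.14 ± 0.28). Ly6a (Sca-1), the surface marker most used for this state, was at 130.5, 111, 48.4 and 47.0 and 1093, 1079.5, 1120.2 and 1073 (3.83 ± 0.49). Msln, mesothelin, was at 95.8 to 221 and 3329 to 3589 (4.59 ± 0.37), and Ereg, an EGF family ligand, at 0.150 to 0.504 and 5.04 to 6.86 (2.37 ± 0.15). DMSO culture 2 was below culture 1 for Krt7, Ly6a and Msln, and no DMSO library of these 5 genes reached an RXRi library. Tgm2, also a retinoic acid-induced gene, was the 1 that fell.

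Genes of neighbouring programmes rose in smaller shares. Of 25 YAP targets, 14 rose and 1 fell (median 1.25, and 2 fell without the shallow library), with Ankrd1 at 1.76 to 5.78 RPKM in DMSO and 17.4 to 25.7 in RXRi (2.52 ± 0.34) and Myof rising by 3.53. Of 12 EGF family ligands and receptors, 7 rose and 4 fell (median 1.59). Egfr, the EGF receptor, was at 7.85, 7.32, 4.88 and 5.31 and 35.0, 34.4, 31.1 and 29.5 (2.21 ± 0.27), while Lrig1 and Lrig3, which restrain it, had differences of -1.62 and -2.01. Of 23 basement membrane and integrin genes, 16 rose and 3 fell (median 1.40), with Col4a2, a collagen of the basement membrane, at 3.43 to 7.22 and 64.9 to 87.1 (3.64 ± 0.26) and Itgb4, the integrin of hemidesmosomes, rising by 2.29. Of 5 keratins of simple epithelium 4 rose (median 2.44). Krt19 was at 1695, 1784, 1613 and 1553 and 8862, 8649, 9017 and 9543 (2.44 ± 0.13), and Krt8 and Krt18, which pair with each other, rose by 2.39 and 2.97.

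Among genes of stratified epithelium, those at a measurable level were mostly higher. Of 39 tested among 62 listed, 36 rose and 0 fell (median 1.78), and 32 of the 36 were above every DMSO culture of any day, against the same 70.7% of all genes that rose. Genes at low levels passed the filter in part through the RXRi libraries, where they were high, so the share that rose is set in part by the filter. Another 21 listed genes were measured and not tested, at 0.801 RPKM or less in all 8 libraries, and 4 of them at 0 in all 8. The 3 that were not called include Krt5, a keratin of basal cells, at 0.383 to 0.793 RPKM in DMSO and 0.543 to 0.785 in RXRi. Trp63, the factor that defines basal cells of stratified epithelium, was at 0 in all 8 libraries. Dsg3, a desmosomal cadherin, was at 0.302, 0.157, 0.0375 and 0.0507 and 4.67, 4.67, 3.58 and 4.01 (2.20 ± 0.14), and Gjb5, a connexin, at 0.123 to 0.509 and 2.62 to 3.50 (1.63 ± 0.14). Sprr2a1, a cornified envelope gene also made by intestinal epithelium, was at 1024, 1017, 926 and 973 in DMSO and 4643, 4793, 4641 and 5020.2 in RXRi (2.28 ± 0.28). Its family holds near-identical copies.

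The stomach list held genes that moved both ways. Of 17 genes tested among 29 listed, 8 rose and 3 fell (median 0.16). The 8 were Tff1, Gkn1, Gkn2, Psca, Muc5ac, Ctse, Vsig1 and Anxa10. The 3 were Sult1c2 (-3.64), Gkn3 (-1.76) and Capn9 (-1.14). Muc5ac, the mucin of gastric surface cells, was at 0 in 3 DMSO libraries and 0.00863 in the other, and at 1.90, 2.04, 3.26 and 2.61 in RXRi. Gkn1, Gkn2 and Muc5ac passed the filter in part through the RXRi libraries, so the share that rose is set in part by the filter. Atp4b, Lipf and Sox2 were at 0 in every DMSO and RXRi library of day 5 and were not tested. Ctse, cathepsin E, was at 2.73 to 4.51 and 43.0 to 52.2 (3.46 ± 0.27). Pgc, Atp4a and Cblif, of chief and parietal cells, were not called.

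The effect on day 5 was then compared with that on day 4 and day 3 by the difference of the differences. Against day 4, 5 genes had a higher effect (0.0402%) and 21 a lower one (0.169%). Against day 3, the day of the change of medium and the repeated dose, 550 had a higher effect (4.42%) and 938 a lower one (7.54%). Without the shallow library the totals were 108 and 3695 genes, and the first total was 5 without RXRi culture 1, 8 without RXRi culture 2 and 15 without DMSO culture 2. Gkn1, Gkn2, Npy (neuropeptide Y), Crct1 and Jam2 were the 5 that went up from day 4. Gkn2 had culture means of 8.67 and 9.52 RPKM in RXRi on day 4 and 24.5 and 30.3 on day 5, with 0.112 or less in DMSO on both days, and its effect grew by 1.55 ± 0.19. Among the 21, Bst1, a surface enzyme, was at 1.33 and 0.638 in DMSO on day 4 and 18.8 and 9.73 on day 5, and was at 0.0868 or less in RXRi on both days. Apoc3 and Fbp1 moved likewise, from 16.5 and 18.03 and from 9.95 and 7.50 in DMSO on day 4 to 120.1 and 139 and to 55.3 and 56.6 on day 5, with RXRi at 0.130 or less on both days. For these 3 genes the growth of the effect lay in the DMSO values.

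Between day 3 and day 5 in DMSO 1674 of all genes rose (13.5%) and 2747 fell (22.1%). RXRi on day 5 was also set against DMSO on day 3, and 2055 genes were higher (16.5%) and 3873 lower (31.1%). The change from day 3 to day 5 within RXRi was not tested. Of the 46 enterocyte genes, 44 rose in DMSO from day 3 to day 5 (median 4.18). In RXRi on day 5, 7 of the 46 were higher and 18 lower than in DMSO on day 3 (median -0.53). These counts stand beside 16.5% and 31.1% of all genes. The effect of RXRi was lower on day 5 than on day 3 for 41 of the 46 and higher for 0 (median of the change -3.85). Reg1 was at 0.498 and 0.588 RPKM in DMSO on day 3 and 1068 and 1648 on day 5, and at 0.905 and 1.25 in RXRi on day 5, so its effect changed by -9.01 ± 0.63. Of 25 Paneth cell genes, 18 rose in DMSO (median 1.99). In RXRi on day 5, 19 of the 25 were lower than in DMSO on day 3 (median -2.50). The effect of RXRi on the Paneth list was lower on day 5 than on day 3 for 18. The list of fetal-like epithelium went the other way, with 13 of 29 falling in DMSO from day 3 to day 5 (median -0.93). In RXRi on day 5, 25 of the 29 were higher than in DMSO on day 3 (median 2.23). The effect of RXRi on this list was higher on day 5 than on day 3 for 15 and lower for 0. Ivl, at 5.63 and 5.28 in RXRi on day 3 and 183 and 156 on day 5, had an effect higher by 4.80 ± 0.87. Cdx1 and Isx differed little between the days, with changes of the effect from day 3 of -0.48 ± 0.33 and -0.05 ± 0.89 that were not called. Vdr was at 1.88 and 1.64 in RXRi on day 3 against 38.6 and 36.7 in DMSO.

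**Figure D4:**
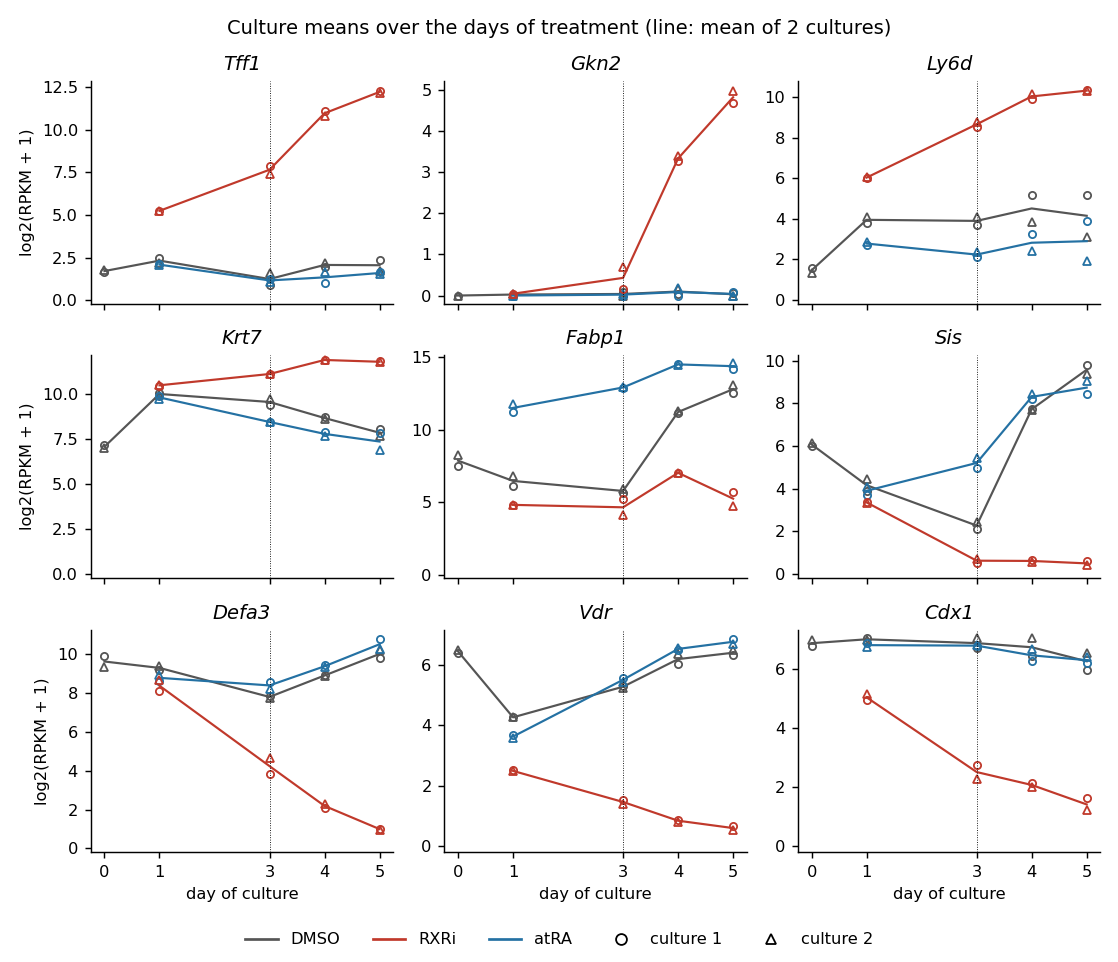
Culture means of 9 genes as log2(RPKM + 1) by day of culture, in DMSO (grey), RXRi (red) and atRA (blue), with circles for culture 1, triangles for culture 2 and lines through the mean of the 2. The dotted line marks day 3, when medium was changed, and the shallow duplicate is left out of the first DMSO culture on day 1. Sis and Fabp1 rise in DMSO after day 3 and not to those levels in RXRi, while Cdx1 and Vdr are already low in RXRi on day 3.

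**Figure D5:**
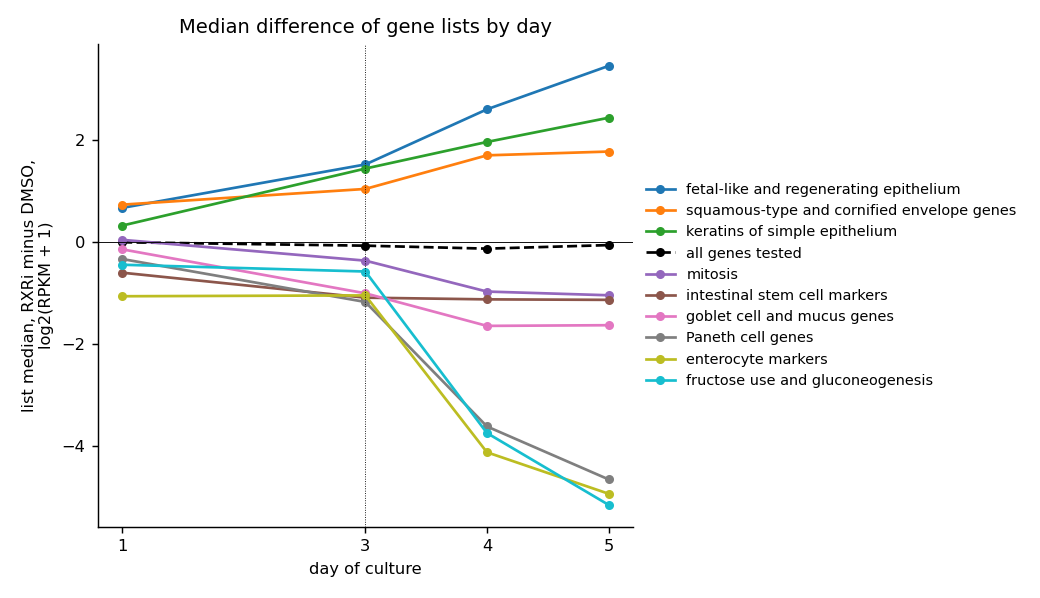
Median difference between RXRi and DMSO, log2(RPKM + 1), over the tested members of 9 gene lists and over all genes (dashed) on days 1, 3, 4 and 5, with the fit without the shallow library for day 1. The list of fetal-like epithelium reaches 3.46 and the enterocyte list -4.94 on day 5, from 1.52 and -1.05 on day 3.

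RXRi and atRA were last compared directly, since their comparisons with vehicle share the DMSO libraries. RXRi was higher for 2372 genes (19.1%) and lower for 2955 (23.7%), and without the shallow library the total of 5327 was 8310. Against DMSO, atRA had 98 genes higher (0.787%) and 55 lower (0.442%). Apoa1 had 1550.1, 1557, 3237 and 3311 RPKM in atRA and fell by 10.04 (± 0.41) in RXRi relative to it, and Tff1, at 1.79 to 2.26 in atRA, was higher in RXRi by 10.60 ± 0.71. Of the enterocyte list 44 of 46 were lower in RXRi than in atRA and 1 higher (median -4.82), and of the list of fetal-like epithelium 28 of 29 were higher (median 4.08). Side by side, Fabp1 was at 5753 to 8565 in DMSO, 17.7 to 58.3 in RXRi and 17179 to 25777 in atRA. Isx had culture means of 96.3 and 138 in DMSO, 0.524 and 0.320 in RXRi and 266 and 259.8 in atRA. The difference of atRA from DMSO was called for neither (Fabp1 1.58 ± 0.47, Isx 1.18 ± 0.63), and the enterocyte median for it was -0.05.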

How the data were processed

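RNA was prepared with a TruSeq mRNA kit, per the labels' protocols. The authors deposited 1 table of RPKM per gene for all 52 libraries, and per the submitters' processing notes used bcl2fastq 2.17, STAR 2.5.2b and mm10. Annotation, counting tool and strand setting were not given in the sources used here. Overlapping genes and close copies are therefore uncertain. All 19708 genes above 0 gave whole reads (tolerance 0.001), from which depths were recovered.

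Duplicates were averaged as log2(RPKM + 1), and 26 culture means of 13 groups were fitted with limma 3.58.1 (R 4.3.3; trend and robust; two-sided; 13 residual degrees of freedom). Genes at 1 RPKM in 4 libraries were tested (12445, with 11671 not tested). The fit was tested on simulated data. Same-numbered cultures come from the same mouse, per the labels. Their deviations correlated at 0.414 for day 5 RXRi and DMSO (median 0.142, -0.317 to 0.759, over 78 pairs of groups, 47 above 0.1). Promoters came from RefSeq.

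The members and lists were chosen with earlier results of these data known. Genes named are the 15 largest each way whose culture means do not overlap, up to 6 of smallest p per list, all receptors, and the 5 largest each way of other contrasts. Further genes, such as Ly6a, Msln, Cdx2, Muc2, Olfm4, Sprr2a1, Apob, Mki67, Pou2f3, Sst and Krt5, were named after their values were seen, as were 7 added lists. Alternatives were another pseudocount (0.1), other filters, median-of-ratios scaling, the mouse as block, day 5 groups alone, single duplicates, voom on recovered reads and leaving out cultures. Some genes that the rule names are not reported here.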

Additional observations from a re-analysis of the deposited data

Results flagged for a closer look

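In 64 groups of 4 libraries, 3 held a library far from the other 3, and chance flags about 1 group in 20. The gap took 0.901 of the range for Adh6a, 0.84 for Cyp1b1 and 1.0 for Gkn2, all in DMSO on day 5. In each the library was a duplicate of culture 1, at 358 RPKM for Adh6a, 0.321 for Cyp1b1 and 0.0894 for Gkn2.

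The effect of RXRi differed between day 5 and day 4 for 26 genes in the limma test of the difference. The named changes of the effect were -2.88 for Bst1, -2.81 for Apoc3, -2.76 for G6pc, -2.61 for Fbp1 and -2.34 for Pdzk1. They were 1.55 for Gkn2, 1.45 for Gkn1, 1.38 for Npy, 1.00 for Crct1 and 0.65 for Jam2. Between day 5 and day 3 it differed for 1488 genes. The lowest changes were -9.01 for Reg1, -8.59 for Apoa4, -7.61 for Apoa1, -7.44 for Sis and -7.07 for Adh1. The highest were 4.80 for Ivl, 4.70 for Mcpt2, 4.56 for Sprr1a, 4.40 for Gkn2 and 4.10 for Mcpt1.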

How the results depend on the processing

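Of the 2223 genes that rose and 2780 that fell, 0 were called the other way under any alternative run. The counts moved to 3575 and 4367 without the shallow library, 3507 and 4376 with voom on recovered reads, and 3713 and 4526 with the replicate block without the shallow library, which was added after seeing the data. With duplicate 1 only 3379 rose and with duplicate 2 only 1323. Changes of the effect from day 4 (26) became 9 with a pseudocount of 0.1 and 108 without the shallow library, changes from day 3 (1488) became 3695 without it, and differences from atRA (5327) became 8310. Leaving out 1 culture gave 1663 to 1868 rises, 2114 to 2564 falls, 5 to 28 changes from day 4, 993 to 1334 from day 3 and 4086 to 4625 differences from atRA. The replicate block, which pairs cultures of a mouse, gave 2298 and 2862, then 31, 1647 and 5479. The causes were not tested. The median of 3 of 47 lists changed sign, from -0.03 to 0.14 for NRF2 targets, -1.37 to 1.34 for immune cell markers and -1.87 to 1.68 for tuft cell genes. Of 156 named genes that were called, 8 lost the call in at least 1 of 15 alternatives (Ak4, Ano1, Cdx2, Klf4, Nr4a1, Pou2f3, Ppard and Sox9; Ano1 and Cdx2 with duplicate 2 only) and 0 reversed. Of the others, 9 were called in at least 1 (Asns, Atp4a, Cyp26b1, Nr0b2, Nt5e, Pgc, Rara, Rxrb and Trib3; Asns and Nt5e under the replicate block) and 7 changed sign. Without 1 culture the differences ran from -0.18 to 0.29 for Eps8, -0.18 to 0.62 for Foxa2, -0.24 to 0.54 for Krt20, -0.046 to 0.22 for Krt5, -0.11 to 0.058 for Nr1h2 and -0.063 to 0.0 for Cblif. Nr1h2 was at 0.020 under scaling, and with single duplicates Atp4a was at -0.055 (duplicate 2) and Cblif at 0.0 (duplicate 1). Scaling moved the median of all genes from -0.06 to -0.03. With 2 cultures a group and 1 dose, spread between mice is known only roughly. Genes that did not reach 1 RPKM in at least 4 of the 52 libraries were not tested.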

Other observations

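Further gene families moved mostly one way on day 5, but the claudins did not. Of 8 claudins tested among 15 listed, 1 rose and 4 fell (median -0.23). Of 82 ribosomal protein genes tested, 70 fell and 1 rose (median -0.79 against -0.06 over all genes), with Rps4x at 744, 713, 926 and 916 RPKM in DMSO and 395, 363, 366 and 363 in RXRi (-1.14 ± 0.11). Of 12 annexins, calcium-dependent membrane-binding proteins, 11 rose (median 2.61) and Anxa13, the intestinal member, fell from 473 to 701 to 62.6 to 93.4. Of 13 S100 genes, 10 rose and 2 fell (median 1.73), with S100a6 at 308 to 656 in DMSO and 4500.4 to 4945 in RXRi. Of 14 Ly6 and uPAR family genes of chromosome 15 tested among 20 listed, 12 rose and 0 fell (median 3.12). Slurp1, a secreted member, was at 0 in all DMSO libraries and at 2.20, 2.87, 2.00 and 3.28 in RXRi. Low members such as Slurp1 passed the filter in part through the RXRi libraries, so the share that rose is set in part by the filter. Gpihbp1, Ly6h and Lypd2 were at 0 in every DMSO and RXRi library of day 5 and were not tested. All of these lists were chosen after values were seen.

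Stress and early response genes rose in part. Of 22 genes of the integrated stress response, 13 rose and 2 fell (median 1.05), with Chac1 at 8.31 to 16.2 RPKM in DMSO and 68.5 to 73.0 in RXRi, while Asns and Trib3 were not called (Asns was with the replicate block). Of 22 immediate early genes, 13 rose and 0 fell (median 0.89), with Fosl1 at 0.910 to 1.51 and 19.9 to 25.0. Mucosal defence genes were mostly lower. Of 22 tested, 13 fell and 5 rose (median -1.29). Pigr, the carrier of secreted antibodies, was at 628 to 720.0 and 1.61 to 2.34 (-7.83 ± 0.16), and the chemokine Ccl25 at 155 to 190.3 and 0.726 to 1.17. Of 22 interferon and MHC class I genes, 6 rose and 6 fell (median 0.30), beside 17.9% and 22.3% of all genes. Without the shallow library 10 rose and 8 fell, beside 3575 and 4367 of all 12445 genes. B2m, the light chain of MHC class I, fell from 481 to 566 to 158 to 227, while the heavy chain gene H2-D1 rose from 137 to 148 to 260.3 to 301.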
